A study of Mus musculus with 24 samples.

Results

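The miR-199a and miR-214 miRNAs were followed through a mouse model of triple-negative breast cancer. They are the mature strands read by the probes mmu-miR-199a-3p, mmu-miR-199a-5p and mmu-miR-214, chosen by probe name, and they make up 3 of the 566 mouse miRNA probes and 3 of the 618 rows of an nCounter table. The nCounter assay counts colour-coded probes hybridised to single RNA molecules, without amplification. The 24 samples were carcinoma areas (n = 5) and EMT-like areas (n = 7) of primary mammary tumors (PT), lung metastases (n = 4), normal mammary gland (NMG, n = 2), normal lung parenchyma (n = 2), and JygMC(A)-GFP/Luc cells grown as monolayers (n = 2) or as 3D spheres on ultra-low adherent plates (n = 2). All tissue came from BalbC nude mice, an athymic strain that lacks mature T cells but keeps the other cells of the host, and was cut out by laser. None of the groups received a drug.

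JygMC(A) is a mammary carcinoma line from a wild mouse, and its GFP and luciferase reporters allow the cells to be followed after injection into the mammary fat pad, so all tumor samples descend from 1 line. Primary tumors were removed before the lung metastases were taken. Carcinoma areas have an adenocarcinoma-like form and EMT-like areas a spindle-like form. Areas of 1 animal can appear in several groups, and 1 sample each of the carcinoma, EMT-like and lung metastasis groups (replicate 1 of each) carries a label that names 3 animals. Where the labels do not say that samples of 1 group came from separate animals or cultures, p-values measure only the spread between these samples.

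MicroRNAs bind messenger RNAs mainly through the seed, the bases 2 to 8 from the 5′ end, and lower the output of the messages they match. In the mouse, the genes Mir199a-2 and Mir214 lie together inside Dnm3os, a long noncoding RNA transcribed antisense within the dynamin 3 gene (Dnm3), and the transcription factor Twist1 drives this transcript in the embryo. Both miRNAs are known from fibroblasts and other mesenchymal cells and are low in most epithelial lines. The other copy, Mir199a-1, lies in the dynamin 2 gene (Dnm2), and the relative Mir199b in the dynamin 1 gene (Dnm1).

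The mature sequences are shown because they set what each probe can and cannot tell apart. They are from RefSeq on GRCm38.p6, written 5′ to 3′ with the seed in capitals. All 3 probes were matched by name, the probe mmu-miR-214 to the strand now called miR-214-3p.
mmu-miR-199a-3p: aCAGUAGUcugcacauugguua
mmu-miR-199b-3p: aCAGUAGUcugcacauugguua
mmu-miR-199a-5p: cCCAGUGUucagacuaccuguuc
mmu-miR-214-3p: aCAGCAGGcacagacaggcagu
mmu-miR-214-5p: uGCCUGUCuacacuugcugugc

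The 22 bases of miR-199a-3p and miR-199b-3p are identical, so the probe mmu-miR-199a-3p reads the product of 3 genes and cannot separate them. The seeds of miR-199a-3p and miR-214-3p match at 5 of 7 positions, and that of miR-199a-5p matches them at 3 and 2 of 7, so the 3 probes stand for 3 seed groups. The Mir199a-2 strands lie on the plus strand of chromosome 1, the 5p strand at chr1:162217844-162217866 and the 3p strand at chr1:162217883-162217904, and miR-214-3p lies at chr1:162223438-162223459. Both hairpins fall within the spans of Dnm3os and Dnm3, with 5444 bases between them. Mir199a-1 encodes the same pair of mature strands on the minus strand of chromosome 9 (3p at chr9:21496498-21496519, within Dnm2), and miR-199b-3p lies at chr2:32318524-32318545, within Dnm1. Among the RefSeq mature miRNAs given here, the only other one with the seed of miR-214-3p was miR-761. Its probe was above the detection limit in 7 of 24 samples, with deposited values from 3 to 21.

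Each deposited value had the average of its lane's 6 negative controls taken off the count, so a value near 0 is at background. A probe was taken as detected where it passed 2 SD of the negative controls, which was 4 to 21.4 deposited units depending on the lane. Depth differed widely between groups. The summed mouse miRNA values were 115259 to 164785 in carcinoma areas, 111602 to 184501 in EMT-like areas, 62583 to 115278 in lung metastases, 525697 to 560247 in NMG, 590022 to 2335745 in normal lung and 26420 to 46507 in cultures. Levels are therefore given as normalized values, scaled between lanes by the trimmed mean of M-values, with means ± SD. Differences are log2 differences of normalized value + 1 with their standard errors (SE), from 1 limma fit over all 24 samples with the animal as a random block. A difference was called at an adjusted p under 0.05 after Benjamini-Hochberg adjustment over 583 probes.

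By normalized mean, both miR-199a strands were highest in NMG, lower in normal lung and lower again in primary tumors. They were lowest among tissues in lung metastases, and at background in the cultured tumor cells. miR-214 was scarce everywhere and did not follow this order. The step from NMG to normal lung was not called, and its sign depended on the scaling. Normal lung was not tested against PT. For miR-199a-3p, the NMG samples had deposited values of 16174 and 14326, and the lung samples of 4633 and 17747. They were 921, 536, 716, 1080 and 576 in carcinoma areas, and 855 to 2024 with a median of 1063 in EMT-like areas. In lung metastases they were 588, 189, 107 and 274. All 20 tissue samples lay far above their detection limits.

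After normalization, miR-199a-3p was 6073 ± 724 (SD, n = 2) in NMG, 2126 ± 172 (n = 2) in normal lung, 1155 ± 355 (n = 7) in EMT-like areas, 963 ± 400 (n = 5) in carcinoma areas and 413 ± 280 (n = 4) in lung metastases. By mean level it ranked 9th of 566 mouse miRNAs in NMG, 32nd in normal lung, 31st in PT and 43rd in lung metastases. NMG and normal lung overlapped with no other group, and the ranges of carcinoma, EMT-like and metastasis samples overlapped. Replicates in NMG and lung stayed close, whereas the lung metastases ranged from 124 to 796.

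miR-199a-5p, the other strand of the same hairpins, kept the same order at a lower level. Its deposited values were 5881 and 8848 for NMG, 2532 and 8192 for normal lung, 298, 279, 205, 392 and 191 in carcinoma areas, 246 to 777 with a median of 401 in EMT-like areas, and 155, 70, 56 and 87 in lung metastases. The normalized means were 2914 ± 736 (n = 2), 1067 ± 41.0 (n = 2), 344 ± 142 (n = 5), 401 ± 164 (n = 7) and 131 ± 59.7 (n = 4), in the same group order. Each of the 20 tissue samples was above its detection limit for this strand as well.

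miR-214 was far weaker. Its deposited values were 89 and 113 for NMG, 33 and 76 for normal lung, 17, 16, 0, 37 and 12 in carcinoma areas, 24 to 43 with a median of 40 in EMT-like areas, and 13, 7, 16 and 8 in lung metastases. It was detected in both NMG samples, both lung samples, 3 of 5 carcinoma areas, 7 of 7 EMT-like areas and 2 of 4 lung metastases. The normalized means were 40.0 ± 5.4 in NMG (n = 2), 12 ± 3.3 in normal lung (n = 2), 21.8 ± 19.6 in carcinoma areas (n = 5), 35.0 ± 9.9 in EMT-like areas (n = 7) and 15.1 ± 3.6 in lung metastases (n = 4). Carcinoma and metastasis samples lay close to the limit of the assay, and the carcinoma group spread from 0 to 53.6. The NMG samples lay well above their deposited limits of 8.58 and 10.4.

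**Figure D1:**
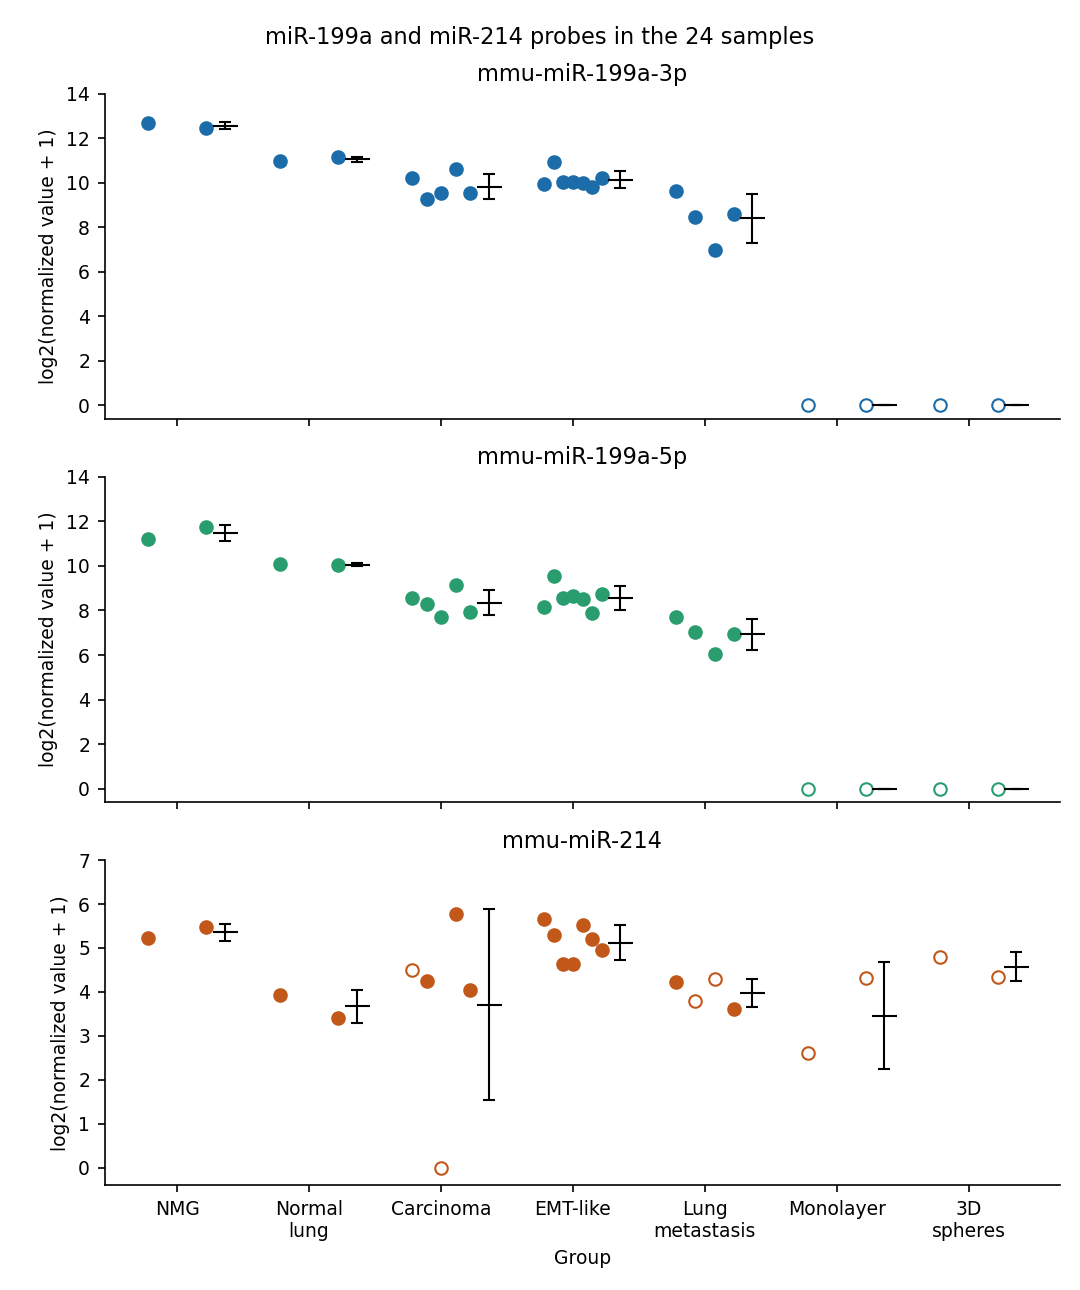
Level of each probe as log2(normalized value + 1) in the 24 samples by group, filled where the probe passed its lane's detection limit and open where it did not; the black mark to the right of each group is the mean with its SD. Both miR-199a strands fall from NMG through lung and tumors to 0 in all 4 cultures, while miR-214 stays between 0 and 5.8 on this scale in every group.

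The cultures ask which of these strands the tumor cells themselves carry outside the animal. Neither miR-199a strand was detected in any of the 4 cultures. The deposited values of miR-199a-3p were -3 and -3 in monolayers and -1 and 0 in 3D spheres, and those of miR-199a-5p were -6, -2, -7 and -9, against detection limits of 11.1 to 21.4 in these lanes. Of the 566 mouse miRNAs, 104 to 126 were detected in the same lanes. Against the mean of the culture lanes' detection limits on the normalized scale, miR-199a-3p was at least 30.8-fold lower in cultures than in PT, where its mean was 1075 ± 369 (n = 12). The same bound for miR-199a-5p was at least 10.7-fold lower, against a PT mean of 377 ± 151 (n = 12).

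Both strands were called lower in cultures by limma (adjusted p = 8.55e-17 for miR-199a-3p and 2.43e-16 for miR-199a-5p), a call shared by 22.3% of all probes tested. Every culture lay below each of the 12 PT samples for both strands. Because tissue was measured in bulk, fewer cells of a type and less RNA per cell cannot be told apart here or in the comparisons that follow.

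miR-214 was also undetected in all 4 cultures, but the limits there lay near its tumor level. Its deposited values were 3 and 10 in monolayers and 15 and 8 in 3D spheres, each above 0 and each below its lane's detection limit. The normalized mean over the 4 cultures was 17.6 ± 9.1, against 29.5 ± 15.5 in PT, where the probe was detected in 10 of 12 samples. On the same scale the culture limits were 26.7 to 36.2, so miR-214 at its PT mean could go undetected there. The cultures therefore cannot show whether miR-214 differed from miR-199a. The log2 difference of -0.52 (SE 0.62) was not called (limma adjusted p = 0.638), and culture and PT samples overlapped. Without carcinoma replicate 3, in which miR-214 was 0, the difference was -0.93 and passed the threshold (limma adjusted p = 0.0472), and with scaling on the miRNA total it turned to 0.56. The members were under the limit in monolayers and 3D spheres alike, so no fold between the culture forms is given.

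What else the cultures lacked bears on how their values are read. The endothelial miRNAs miR-126-3p and miR-126-5p were at 0 in all 4 cultures, and their summed level was 1020 to 3067 in PT. Of the epithelial list (the miR-200 family with miR-203 and miR-205), 5 of 7 were undetected in every culture, namely miR-200a, miR-200b, miR-200c, miR-141 and miR-429. Each of these was detected in 8 to 12 of the 12 PT samples. An epithelial miRNA family was thus also detected in tumors and undetected in the cultures, as miR-199a was. Whether miR-199a in the tumor areas came from host cells or from tumor cells was not tested.

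Compared with NMG, both miR-199a strands were several-fold lower in primary tumors. NMG and normal lung are tissues of BalbC nude mice, and the tumor line came from a wild mouse. A difference of strain therefore cannot be told apart from one of tumor in the comparisons with normal tissue. In carcinoma areas, miR-199a-3p was 6.68-fold lower than in NMG (log2 difference -2.74, SE 0.47, limma adjusted p = 9.57e-05). miR-199a-5p was lower by 8.86-fold (log2 difference -3.15, SE 0.42, limma adjusted p = 6.51e-06). All 5 carcinoma areas lay below both NMG samples for each strand. Of all probes tested, 24.4% were called lower in this comparison. The size depended on the scaling: over the alternatives run with all samples, the log2 difference lay between -4.37 (no scaling) and -2.34 (miRNA total) for miR-199a-3p and between -4.77 and -2.75 for miR-199a-5p. miR-214 had a log2 difference of -1.64 (SE 0.90) that was not called (limma adjusted p = 0.195), and 1 of 5 carcinoma areas lay above both NMG samples. Without carcinoma replicate 3, in which miR-214 was 0, that difference was -0.71 (limma adjusted p = 0.350).

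EMT-like areas gave nearly the same picture for miR-199a. The 3p strand was 5.41-fold lower than in NMG (log2 difference -2.43, SE 0.45, limma adjusted p = 0.000242), and the 5p strand 7.58-fold lower (log2 difference -2.92, SE 0.40, limma adjusted p = 1.11e-05). All 7 areas lay below both NMG samples, and 19.6% of all probes were called lower. The same alternatives gave -3.71 to -1.87 for miR-199a-3p and -4.20 to -2.36 for miR-199a-5p. miR-214 was at 35.0 in EMT-like areas and 40.0 in NMG, a log2 difference of -0.23 (SE 0.86) that was not called (limma adjusted p = 0.948), with 2 areas above and 4 below both NMG samples.

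Lung metastases were set against normal lung parenchyma, their host tissue. miR-199a-3p was 6.24-fold lower (log2 difference -2.64, SE 0.48, limma adjusted p = 0.000153) and miR-199a-5p 8.75-fold lower (log2 difference -3.13, SE 0.44, limma adjusted p = 6.03e-06) in the metastases. All 4 metastases lay below both lung samples. This call was common, since 36.9% of all probes were lower. Here the scaling moved the size most, from -5.54 (mRNA controls) to -1.61 (miRNA total) for miR-199a-3p and from -6.00 to -2.10 for miR-199a-5p. miR-214 was 15.1 against 12, a log2 difference of 0.31 (SE 0.93, limma adjusted p = 0.828) whose direction turned to -2.17 without scaling and to -2.55 with scaling on the 4 mRNA controls, both past the threshold.

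The tumor against normal difference was compared directly between the organs. For miR-199a-3p it was -2.64 in lung and -2.56 in mammary gland, and the difference between these was -0.08 (SE 0.64, limma adjusted p = 0.979). For miR-199a-5p the values were -3.13 and -3.02, which differed by -0.11 (SE 0.58, limma adjusted p = 0.943). For miR-214 they were 0.31 and -0.82, which differed by 1.12 (SE 1.25, limma adjusted p = 0.701). None was called, and 7.72% of all probes were called in either direction. The near-equal sizes rest on the scaling. Without scaling the organs differed by -1.25 for miR-199a-3p and -1.28 for miR-199a-5p, and with scaling on the mRNA controls by -1.87 and -1.88, none called.

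The normal tissues themselves differed in level, though not past the threshold. Normal lung had 2.85-fold less miR-199a-3p than NMG (log2 difference -1.51, SE 0.56, limma adjusted p = 0.0831) and 2.69-fold less miR-199a-5p (log2 difference -1.43, SE 0.50, limma adjusted p = 0.0736). For miR-214 the log2 difference was -1.68 (SE 1.08, limma adjusted p = 0.400). The 2 lung samples lay below the 2 NMG samples for each probe, which groups of 2 can easily show without a real difference. How many other probes separated in this way was not counted. Of all probes, 8.92% were called in either direction. With scaling on the mRNA controls the sign turned for all 3 probes (0.26, 0.35 and 0.0068, none called), so the order of the normal tissues depends on the scaling.

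**Figure D2:**
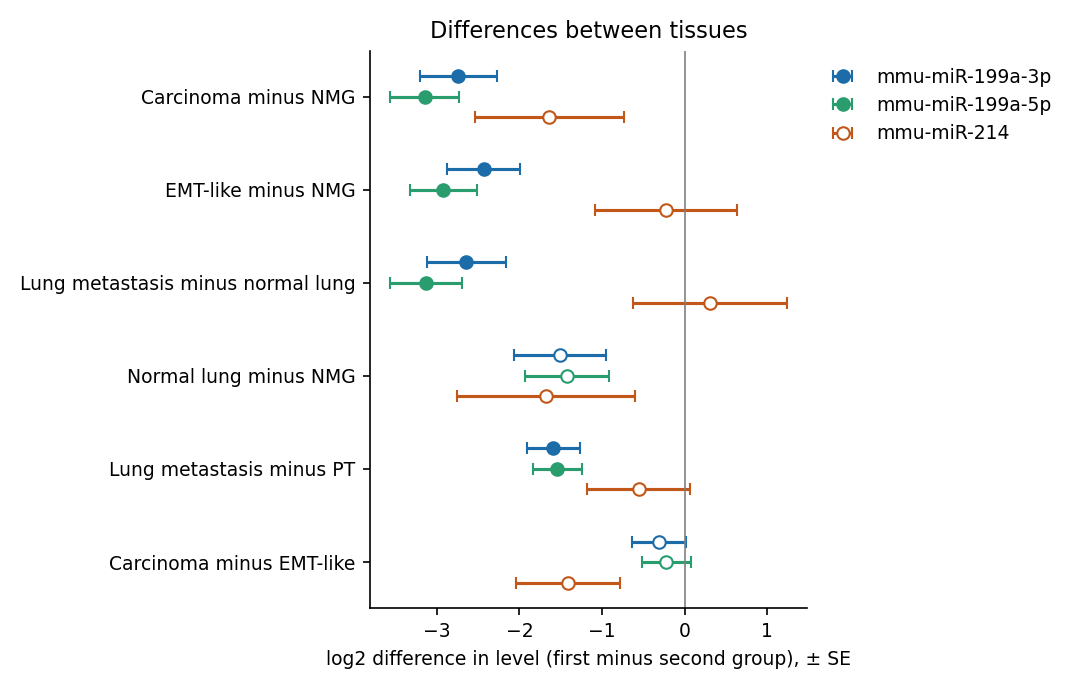
Log2 difference between groups, first minus second, for the 3 probes in 6 comparisons, with bars of 1 SE; filled points were called in the limma fit and open points were not. The miR-199a strands lie from -2.43 to -3.15 in all 3 comparisons of tumor with normal tissue and near -1.6 and -1.5 in lung metastasis minus PT, and none of the 6 miR-214 points was called.

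Lung metastases carried less of both miR-199a strands than the primary tumors. miR-199a-3p was 3.01-fold lower (log2 difference -1.59, SE 0.32, limma adjusted p = 0.00394), and miR-199a-5p 2.91-fold lower (log2 difference -1.54, SE 0.29, limma adjusted p = 0.00192). For each strand 3 of 4 metastases lay below all 12 PT samples, and the metastasis of the 3-animal sample lay within the PT range. Only 3.6% of all probes were called lower in this comparison, that is 21 of 583. miR-214 had a log2 difference of -0.56 (SE 0.62, limma adjusted p = 0.849), and no metastasis lay outside the PT range. The lower end of that range was the 0 of carcinoma replicate 3. The next lowest PT value was 15.4, and metastasis replicates 2 and 4 lay below it at 12.9 and 11.2. With 1 sample left out the difference ran from -0.97 to -0.43 and was never called.

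With the animal as a fixed replicate block, which compares areas within animals, the miR-199a-5p difference was -1.28 (limma adjusted p = 0.0410) and that of miR-199a-3p was -1.39, no longer past the threshold (limma adjusted p = 0.0671). Scaling on the mRNA controls also ended both calls (-1.61 and -1.53, limma adjusted p = 0.0913 and 0.0967). The animals fall into a set labelled with letters, with 1 metastasis, and a set labelled with numbers, with 3. Within the numbered set the differences were -2.02 for miR-199a-3p and -1.80 for miR-199a-5p (limma adjusted p = 0.0243 for both), and within the lettered set they were -0.32 and -0.79.

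In the 4 animals or animal pools with both an EMT-like area and a lung metastasis, the metastasis was lower every time for each probe. That is only a description, since how many other probes were lower in all 4 was not counted. For miR-199a-3p the EMT-like area exceeded the metastasis by 0.30, 1.59, 2.82 and 1.63 log2 units, and for miR-199a-5p by 0.42, 1.61, 1.83 and 1.78. For miR-214 the same 4 differences were 1.43, 0.83, 0.91 and 1.34, although 2 of the 4 metastases were under the detection limit. The first value in each series is the 3-animal sample, which had the smallest difference for miR-199a and the largest for miR-214. In the 2 pairs of a carcinoma area with a metastasis, the metastasis was lower by 0.56 and 1.09 log2 units for miR-199a-3p.

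**Figure D3:**
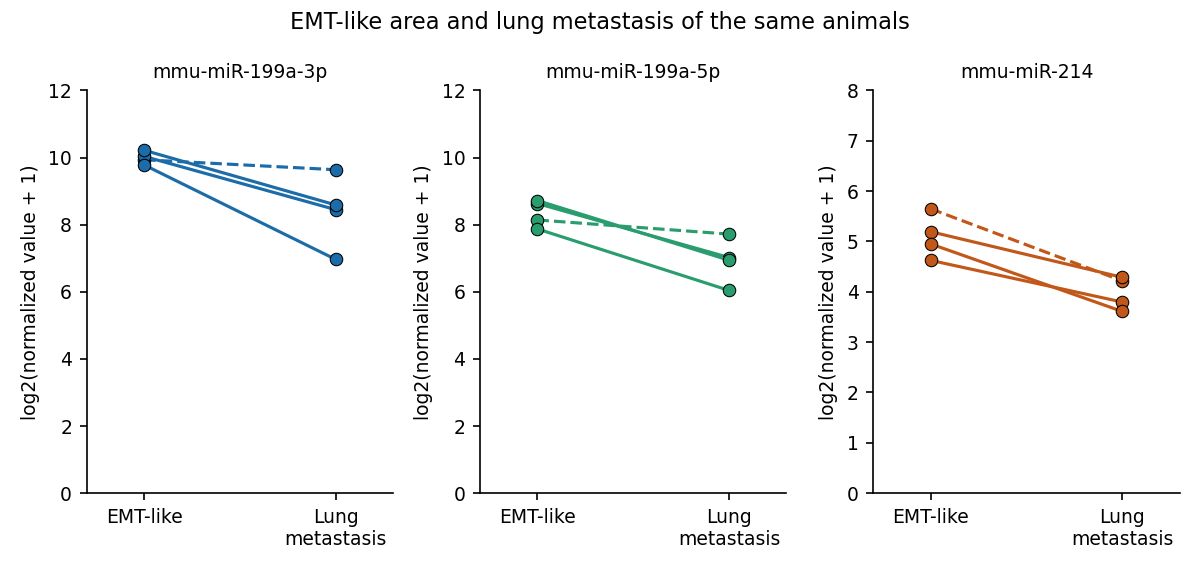
Levels of the 3 probes as log2(normalized value + 1) in the EMT-like area and the lung metastasis of the same animal, joined by a line; the dashed line is the sample whose label names 3 animals. All 4 lines fall in each panel, which was not counted over all probes, and the dashed line falls least for both miR-199a strands.

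Within the primary tumors, no difference between carcinoma and EMT-like areas was called for these miRNAs. The log2 differences were -0.31 (SE 0.33, limma adjusted p = 0.711) for miR-199a-3p, -0.22 (SE 0.29, limma adjusted p = 0.786) for miR-199a-5p and -1.41 (SE 0.63, limma adjusted p = 0.304) for miR-214. In either direction, 1.37% of all probes were called. The sets disagreed in sign for miR-199a, with -0.78 and -0.67 in the lettered animals and 0.05 and 0.08 in the numbered animals. Of the 4 animals or pools with both areas, the EMT-like area was higher in 2 and the carcinoma area in 2 for each miR-199a strand. EMT-like replicate 2 held the highest level of both strands among the PT samples, at 1930 and 741. For miR-214, 4 of 5 carcinoma areas lay below all 7 EMT-like areas and 1 lay above all of them. The miR-214 difference was -0.48 without carcinoma replicate 3 (limma adjusted p = 0.708) and -0.44 with the animal as a fixed block (limma adjusted p = 0.944).

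In the same samples the epithelial list had a median log2 difference of 2.76, against -0.20 over all probes. In carcinoma areas 3 of 7 members were called higher, beside 4 of all 583 probes. These counts were not stable. No probe was called higher with the fixed animal block, with the animal set as a term, with any of the other 4 scalings, with the higher background, with a pseudocount of 10 or in a fit of these areas alone.

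Ratios between probes of 1 lane need no scaling between lanes, and they were taken where both probes were detected. The miR-199a-3p value was 2.8 times that of miR-199a-5p in carcinoma areas (geometric mean, n = 5), and 2.96, 2.80, 2.11 and 1.99 times in EMT-like areas, lung metastases, NMG and normal lung. Over 9 exact two-sided permutation tests, this ratio was 1.40-fold higher in the 16 tumor samples than in the 4 normal samples (exact permutation p = 0.00929, adjusted p = 0.0279), with overlapping ranges. The 4 normal samples carry only 2 animal numbers and tumor areas share animals, while the permutation treats each lane as independent, so the p-values of the ratio tests are too small. The ratio of the strands passed neither without NMG replicate 2 nor without normal lung replicate 1 (exact permutation, adjusted p = 0.170 and 0.108). The probes differ in how well they bind, so such a ratio gives no relative abundance of the strands, only a change between groups.

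The larger shift was against miR-214. The miR-199a-3p value was 152 times that of miR-214 in NMG and 181 times in normal lung, and 36.1, 33.1 and 39.4 times in carcinoma areas (n = 3), EMT-like areas (n = 7) and lung metastases (n = 2). On the log2 scale the ratio was 7.37 ± 0.40 in the 4 normal samples and 5.12 ± 0.46 in the 12 tumor samples with both probes detected. The ranges, 6.99 to 7.87 and 4.31 to 5.66, did not overlap. The ratio was 4.76-fold lower in tumors (exact permutation p = 0.000549, the smallest these 1820 splits can give for groups of 12 and 4, adjusted p = 0.00247). For miR-199a-5p over miR-214 it was 6.79-fold lower in tumors (exact permutation p = 0.000549, adjusted p = 0.00247).

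These ratios rest on small miR-214 values, and the tumor lanes held fewer counts than the normal lanes. As an alternative, the mean deposited miR-214 value of the cultures, 9, was taken as background. Whether it is background or a low level of miR-214 in the cells was not tested. With it subtracted, the log2 difference in the ratio was -1.71 for miR-199a-3p and -2.21 for miR-199a-5p over miR-214 (exact permutation, adjusted p = 0.0179 and 0.0103). With all 16 tumor lanes included and values floored at 1, it was -2.11 and -2.60 (exact permutation, adjusted p = 0.0279 and 0.00929). Between carcinoma and EMT-like areas and between lung metastases and PT, none of the 6 ratio tests passed (exact permutation, adjusted p = 0.907 to 0.939).

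**Figure D4:**
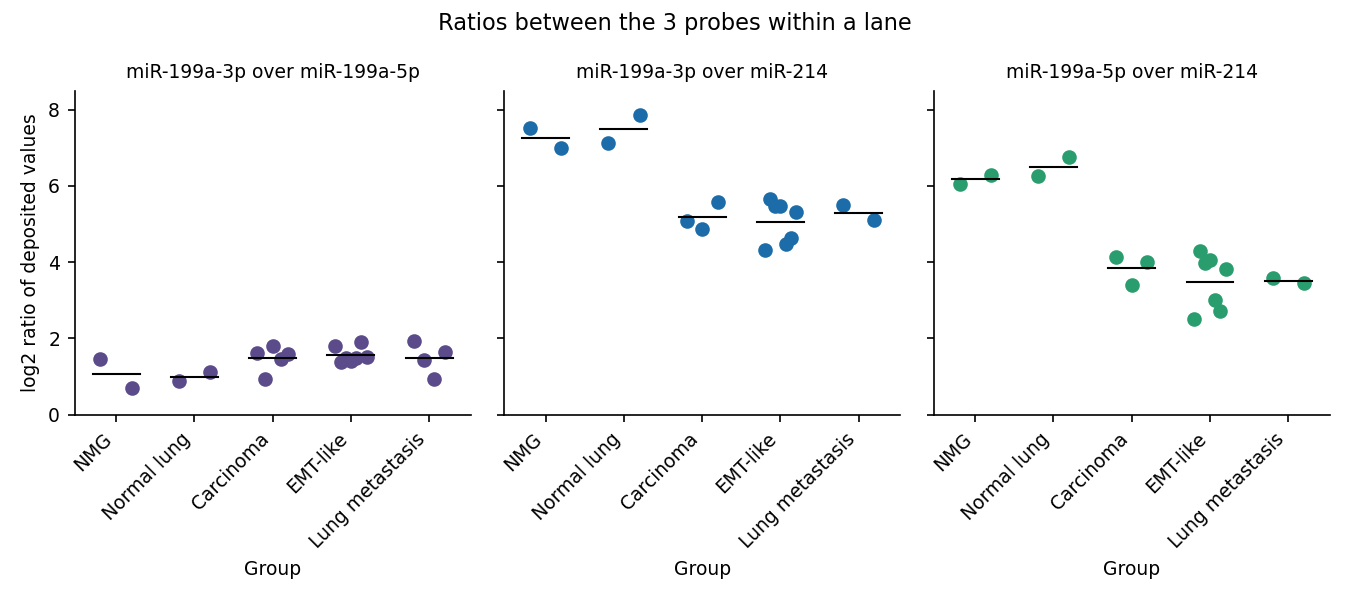
Log2 ratios of deposited values between probes of 1 lane, by group, for lanes in which both probes were detected; each point is a sample and each line a group mean. The ratios over miR-214 lie at 6.0 to 7.9 in the normal tissues and at 2.5 to 5.7 in the tumors, and the ratio between the miR-199a strands overlaps between them.

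Across samples the miR-199a strands rose and fell together and miR-214 did so only in part. On log2 normalized values, Pearson's r was 0.99 between the miR-199a strands over all 24 samples, which includes the step between cultures and tissue, and 0.88 over the 12 PT samples. With miR-214, r was 0.21 for the 3p strand and 0.23 for the 5p strand over 24 samples, and 0.50 and 0.54 over PT. These are descriptions, since the samples share animals and the same scaling. Probes of 193 other mouse miRNAs detected in at least 12 samples were ranked by their mean r with the 3 members. The 8 highest were miR-223, miR-10a, miR-1839-5p, miR-190b, miR-342-3p, miR-691, miR-126-3p and miR-196a, with mean r from 0.71 down to 0.66. Each of the 8 was undetected in all 4 cultures. This follows from the ranking, since both miR-199a strands were at background in the cultures and high in tissue. It adds no separate evidence of likeness. Their r was 0.82 to 0.97 with miR-199a-3p and 0.11 to 0.32 with miR-214. miR-223 is a myeloid miRNA, miR-126-3p an endothelial one, and miR-10a and miR-196a lie in the Hox gene clusters.

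Other miRNAs known from fibroblasts, smooth muscle and mesenchymal lines were counted as a list of 10, shown beside miR-199a. In lung metastases against PT, 4 of 10 were called lower, beside 3.6% of all probes, and none higher. The list median was -1.10 against -0.05 over all probes. The called members were miR-10b (-3.67, SE 0.60, limma adjusted p = 0.000507), a Hox-cluster miRNA, miR-152 (-1.49, SE 0.41, limma adjusted p = 0.0389), miR-22 (-1.41, SE 0.36) and miR-125b-5p (-1.19, SE 0.29). For miR-10b the size is uncertain, since it was detected in 1 of 4 metastases, at a mean of 11.9 ± 11.3, and in 12 of 12 PT samples. miR-143 and miR-145, the smooth muscle and pericyte pair of the list, had log2 differences of -0.08 and -0.48 that were not called (limma adjusted p = 1 and 0.410). The endothelial miR-126 strands were not called either, with a median of -0.07 and summed levels of 739 to 3203 in metastases and 1020 to 3067 in PT. Epithelial miRNAs had 1 of 7 called higher in the metastases, with summed levels of 2415 to 4803 against 62.1 to 6185 in PT. Erythroid miRNAs had 1 of 3 and immune miRNAs 1 of 6 called higher. These members, miR-203, miR-451 and miR-150, were the only 3 of 583 probes called higher. The part of these cell types in the miR-199a difference was not tested.

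Against normal tissue, 6 of 10 members were called lower in carcinoma areas than in NMG, beside 24.4% of all probes. For EMT-like areas the count was 3 of 10, beside 19.6%, and for lung metastases against normal lung 5 of 10, beside 36.9%. No member was called higher in any of the 3. The medians were -2.02, -1.76 and -1.93, against -0.65, -0.24 and -0.60 over all probes. In EMT-like areas miR-143 had the largest difference of the list (-3.75, SE 0.93, limma adjusted p = 0.00405), followed by miR-145 (-2.28, SE 0.36, limma adjusted p = 4.47e-05). miR-21 had 0.26 (SE 0.75, limma adjusted p = 0.888). Endothelial, erythroid and smooth muscle miRNAs were also called lower, 2 of 2, 3 of 3 and 2 of 2, in each of these 3 comparisons. In the same order, epithelial miRNAs had 1, 4 and 1 of 7 called lower and skeletal muscle miRNAs 2, 1 and 2 of 4, with none higher. Immune miRNAs went both ways, with 3, 3 and 4 of 6 called lower and 2, 1 and 2 called higher. Of all 583 probes, 34, 29 and 51 were called higher. The summed endothelial level was 11472 to 17436 in NMG and 47336 to 50055 in normal lung, far above the tumors. The part of these cell types in the miR-199a difference was not tested.

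In the cultures against PT, 7 of 10 list members were called lower, beside 22.3% of all probes, and none higher, with a median of -2.62 against -0.09 over all probes. The pattern differed from miR-199a in that 3 members stayed detected in all 4 cultures. These were miR-125b-5p, miR-22 and miR-145, at normalized means of 4401 ± 2146, 1779 ± 1535 and 670.2 ± 480. The 2 monolayers differed, at 684 and 4052 for miR-22 and 376 and 1387 for miR-145. miR-10b and miR-21 were detected in 3 of 4 cultures. miR-143, miR-100, miR-152 and miR-497 were each detected in 1 of 4, a monolayer. Only miR-195 was undetected in every culture, as both miR-199a strands were. Unlike them, it was scarce in tumors too, detected in 4 of 12 PT samples at a mean of 11.2 ± 6.2. The PT means of miR-195 and miR-497 (23.4 ± 6.7) lay under the culture detection limits of 26.7 to 36.2 on the normalized scale. The calls of miR-195 and miR-497 therefore rest on values near background. miR-143 and miR-21 had the largest differences, -4.93 (SE 0.67) and -4.91 (SE 0.54).

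**Figure D5:**
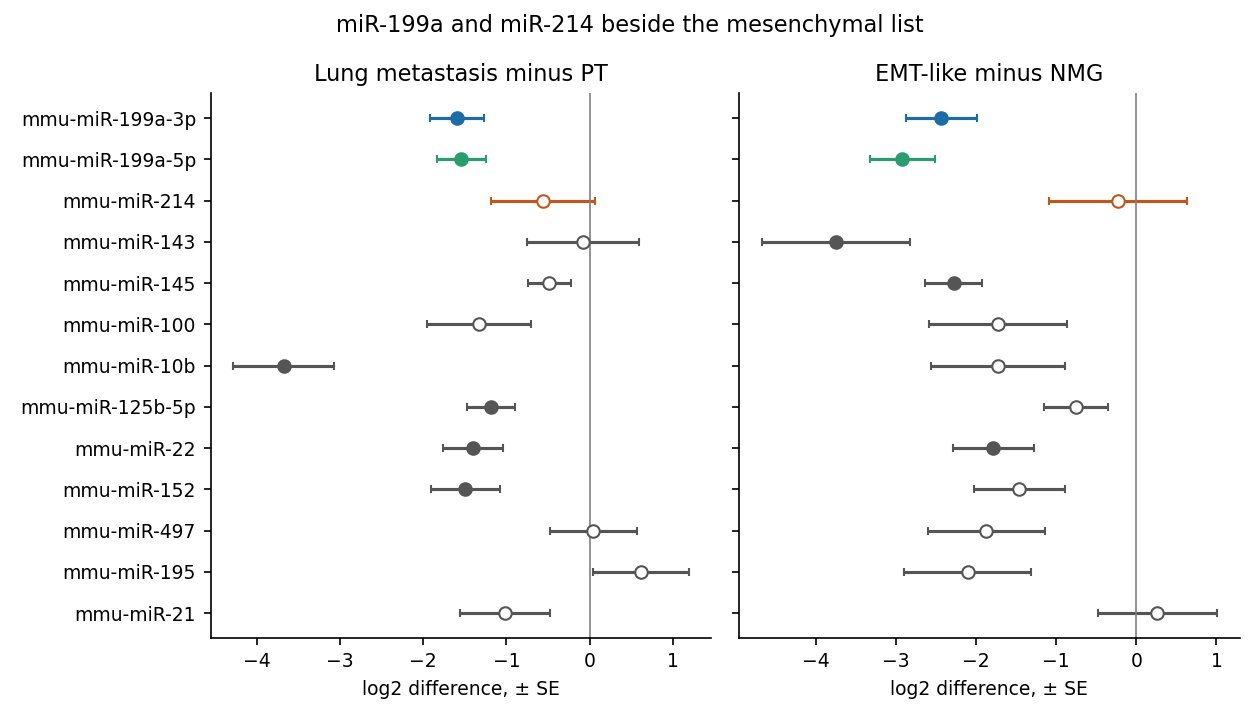
Log2 differences with bars of 1 SE for the 3 probes and the 10 miRNAs of the mesenchymal list, in lung metastasis minus PT and in EMT-like minus NMG; filled points were called in the limma fit. Both miR-199a strands were called lower in both panels and miR-214 in neither. Of the 10 list members 4 and 3 were called lower, beside 3.6% and 19.6% of all probes.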

How the data were processed

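Mouse miRNA was measured with nCounter assays on purified total RNA from laser-captured areas and cultured cells. The authors deposited a table whose values (unit: score) are counts from which the average of a lane's 6 negative controls was taken off, as found from the values, which are whole numbers with a lowest value of -20, and 35.2% of miRNA values below 0. Partek is named in the submitters' processing notes without a role. The values were not scaled between lanes. Raw counts were not used here, so no count model was run. No column of per-sample values was left unmatched to a sample.

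Values were floored at 0, scaled by the trimmed mean of M-values (30% of log ratios and 5% of levels trimmed, EMT-like replicate 2 as reference) and tested on log2(value + 1) with limma 3.58.1 in R 4.3.3. All 7 groups entered 1 fit with mean-variance trend and the animal as a random block (correlation -0.0052), over 583 mouse and viral probes above 0 in at least 1 sample. The animal comes from the labels. Samples of 1 animal had a median correlation of deviations from the group means of 0.10 (10 pairs), against -0.04 for different animals (73 pairs). Low depth limits miR-214 above all, since its values lie near or under the detection limit in carcinoma areas, lung metastases and cultures. Ratios were tested by exact permutation in Python 3.11.15, with Benjamini-Hochberg adjustment over 9 tests. Functions were tested on simulated data. Alternatives covered scaling, background, pseudocount, filter, samples fitted, animal block, animal set and each sample left out.

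Named are the 3 members, the 8 miRNAs most like them, and from each list those with the largest differences. Beyond that rule, the other called members of the mesenchymal list, its members detected in all cultures, miR-195, miR-21 and the epithelial miRNAs absent from cultures were named after their values were seen. The members, lists and tests were chosen with earlier results of these data known. Times and ages of the animals were not used here.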

Additional observations from a re-analysis of the deposited data

Results flagged for a closer look

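The miR-199a-3p level of EMT-like replicate 2, a normalized value of 1930, stood apart from the other 6 EMT-like areas, which lay between 879 and 1191. Its gap to the nearest sample was 0.614 of the range of the group on the log2 scale, above the critical value of 0.568 for 7 samples, and chance alone marks about 5% of groups in this way. Among 9 groups tested in this manner (3 probes in carcinoma areas, EMT-like areas and lung metastases), it was the only such sample.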

How the results depend on the processing

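The calls of both miR-199a strands in carcinoma and EMT-like areas against NMG, in lung metastases against normal lung and in cultures against PT kept their direction and their side of the threshold under every alternative run, left-out samples included. Of all 675 recomputed values, 629 kept both. For lung metastases against PT, scaling on the mRNA controls ended both calls (-1.61 for miR-199a-3p, -1.53 for miR-199a-5p), the fixed animal replicate block ended that of miR-199a-3p (-1.39) and not that of miR-199a-5p, and the lettered animals alone gave -0.32, -0.79 and, for miR-214, 0.42. The cause was not tested, except that the lettered set has 1 metastasis. That block was also run for carcinoma against EMT-like areas and normal lung against NMG, where no member was called either way. In the numbered animals alone, carcinoma against EMT-like areas turned to 0.054 and 0.084 for miR-199a-3p and miR-199a-5p. For normal lung against NMG, the miR-199a-3p and miR-199a-5p differences passed the threshold with scaling on the miRNA total (-1.86, -1.77), on the 100 most abundant miRNAs (-1.56, -1.47) and with the higher background (-1.65, -1.57), and turned with the mRNA controls (0.26, 0.35, and 0.0068 for miR-214). Against NMG, miR-214 passed the threshold in carcinoma areas without scaling (-3.22) and with the mRNA controls (-2.56), and turned in EMT-like areas with the total (0.31) and the 100 most abundant (0.22). In lung metastases against normal lung it turned without scaling (-2.17), with the mRNA controls (-2.55) and with the higher background (-1.32). In cultures against PT it turned with the total (0.56) and the 100 most abundant (1.49) and passed the threshold with the higher background (-3.38); with samples left out it ran from -0.93 to -0.048. The difference between the organs turned for miR-199a-3p and miR-199a-5p with the total (0.45, 0.42) and the 100 most abundant (0.098, 0.067), for miR-199a-3p with the higher background (0.027) and for miR-214 with the mRNA controls (-0.65); with samples left out it ran from -0.50 to 0.40 and from -0.38 to 0.18. In the ratios, lung metastases against PT turned to -0.98 (miR-199a-3p over miR-214, all lanes floored at 1) and to 1.02 (miR-199a-5p over miR-214, culture background subtracted, 1 metastasis left and no test). That subtraction was chosen after seeing the data. With samples left out, the ratio of miR-199a-3p to miR-199a-5p ran from -0.16 to 0.05 in carcinoma against EMT-like areas, from -0.19 to 0.14 in lung metastases against PT and from 0.37 to 0.63 in tumors against normal tissue, and that of miR-199a-3p to miR-214 from -0.081 to 0.28 in carcinoma against EMT-like areas. Over all alternatives, left-out samples and animal sets included, the number of probes called ran from 0 to 18 for carcinoma against EMT-like areas (8 as reported), from 5 to 41 for lung metastases against PT (24), from 101 to 294 and from 102 to 210 for carcinoma and EMT-like areas against NMG (176 and 143), from 129 to 387 for lung metastases against normal lung (266), from 13 to 192 for normal lung against NMG (52), from 126 to 275 for cultures against PT (171) and from 27 to 174 for the difference between the organs (45). Single samples moved it by over 1.5 times: to 12 and 14 without lung metastasis replicates 1 and 3 against PT, to 101 and 107 without NMG replicates 1 and 2 against carcinoma areas, to 129 without normal lung replicate 2 against lung metastases, to 104 without normal lung replicate 1 and 30 without NMG replicate 1 between the normal tissues (106 and 27 for the difference between the organs), and to 1 to 18 in carcinoma against EMT-like areas with any 1 sample other than carcinoma replicate 4 left out. For normal lung against NMG alone no block correlation could be estimated, so that fit had no block. Depth limits miR-214, which lay under the detection limit in 4 of 16 tumor samples.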
